A study of Mus musculus with 17 samples.

Results

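The 83 genes described here encode nuclear subunits of the 5 complexes of oxidative phosphorylation, measured as RNA in E14 mouse embryonic stem cells. They were chosen by gene symbol alone, as names that begin with Nduf and a letter a, b, c, s or v plus a number, Sdha to Sdhd, and names that begin with Uqcr, Cox4 to Cox8 or Atp5. Of the 20621 genes in the count table, 84 matched these names, and 83 had at least 10 counts over the 17 libraries. Cox8b, with 7 counts in all, was left out. All 83 were among the 15365 genes that passed a filter on low counts. Sorted by name, they comprised 37 genes of complex I, 4 of complex II, 8 of complex III, 17 of complex IV and 17 of complex V. Ndufa4, whose protein is now placed in complex IV, and Ndufa4l2 are counted with complex I throughout. Of the complex V names, Atp5s and Atp5sl are not subunits, and RefSeq names them Dmac2l and Dmac2. The subunits encoded by mitochondrial DNA were not analysed here.

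RNAPII-mut cells (genotype slow/slow, "mutant" from here on) were compared with WT cells. The series title describes the mutant RNA polymerase II as slow in elongation. Both lines grew without feeder cells in medium with serum and LIF, and 2i, a pair of inhibitors of MEK (PD0325901) and GSK3 (CHIR99021), was present for 0, 1, 2 or 7 days. Total RNA was sequenced from 2 libraries in each combination of genotype and day, and from 3 for the mutant at day 1. The sources used here do not say how many clones were used, so an effect of the mutation cannot be told apart from one of the line it was measured in. The labels do not state that replicates are separate cultures, so p-values measure only the spread between these samples, which may be technical.

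Complexes I to IV pass electrons from NADH and succinate to oxygen and, at all but complex II, pump protons across the inner mitochondrial membrane. Complex V, the ATP synthase, uses the returning protons to make ATP. Embryonic stem cells are known to draw on both glycolysis and respiration, and naive cells to respire more than primed cells. Several cytochrome oxidase subunits exist as a ubiquitous form and a form known from muscle, lung or testis.

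Library totals lay between 47350441 and 56138844 counts, of which these genes held 1.28 to 2.26%. All 10 markers of embryonic stem cells were detected in every library, with summed levels of 5364 to 11160 CPM (counts scaled to library size with TMM factors). The summed level of 12 stromal and smooth muscle markers was 17.9 to 50.1 CPM in all mutant libraries and most WT libraries. It was 597.5 CPM in WT day 0 replicate 1, 1042 CPM in WT day 1 replicate 1 and 165 CPM in WT day 2 replicate 1. Of these markers, Lum was at 0 in 15 libraries and Postn in 13, while Tagln was detected in all 17. Thy1 went the other way, at 4.96 and 3.43 CPM in WT replicate 1 of days 0 and 1, against 23.3 and 16.7 CPM in replicate 2. Those replicate 1 libraries also had the highest summed mesoderm markers, 164.7 and 114 CPM. Their summed stem cell markers were the lowest, 5488 and 5364 CPM. Summed primitive endoderm markers reached 565 to 655.6 CPM in the WT libraries numbered 2, against 188.9 to 396 CPM elsewhere. On average over the days, 5 of 10 tested stromal markers and 6 of 9 primitive endoderm markers were lower in the mutant by the test used below. WT day 0 replicate 1 and WT day 1 replicate 1 are left out in a fit given beside the results, as the WT pair with stromal markers. WT day 2 replicate 1, at 165 CPM, stays in that fit. The part of the endoderm markers in the results was not tested. In such bulk samples, fewer cells of a type and less RNA per cell cannot be told apart.

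Promoter windows were available for 68 of the 83 genes, from 250 bases before to 50 after the annotated start (RefSeq, GRCm38.p6). Letters known for factors that act on respiratory genes were searched on both strands, and a match is a description of these letters only. The NRF1 letters GCGCATGCG were found in 10.81% of the 74 windows of these genes, against 1.75% of the 32851 windows of all genes. The shorter NRF1 letters GCATGCGC, which overlap them, were found in 13.51% of these windows and 2.71% of all windows. The ETS letters CCGGAAG were found in 21.62% of these windows and 8.86% of all windows. The YY1 letters AAGATGGC were found in 16.22% of these windows and 2.75% of all windows, and 9 of the 12 matches lay 22 to 38 bases after the start. TATAAA was found in 9.46% of these windows and 13.62% of all windows. The median GC content was 57.5% in these windows and 52.67% in all windows.

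The windows of 5 genes are shown, 5′ to 3′ on the strand of the gene, with NRF1 and ETS matches in capitals. Sdhb (chr4:140961021-140961320, plus strand), Uqcr11 (chr10:80406772-80407071, minus strand) and Cox6a1 (chr5:115348909-115349208, minus strand) hold matches of both kinds. Cox6b1 (chr7:30626065-30626364, minus strand) holds an ETS match only. Cox7a1 (chr7:30183921-30184220, plus strand), the muscle form whose RNA changed most with days in 2i among the genes that passed the test, holds neither.
Sdhb: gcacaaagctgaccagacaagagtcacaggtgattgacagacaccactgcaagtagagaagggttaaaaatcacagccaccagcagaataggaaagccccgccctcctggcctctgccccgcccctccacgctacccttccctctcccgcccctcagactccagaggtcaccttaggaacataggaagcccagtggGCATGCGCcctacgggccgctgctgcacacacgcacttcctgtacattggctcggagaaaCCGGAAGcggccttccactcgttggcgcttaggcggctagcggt
Uqcr11: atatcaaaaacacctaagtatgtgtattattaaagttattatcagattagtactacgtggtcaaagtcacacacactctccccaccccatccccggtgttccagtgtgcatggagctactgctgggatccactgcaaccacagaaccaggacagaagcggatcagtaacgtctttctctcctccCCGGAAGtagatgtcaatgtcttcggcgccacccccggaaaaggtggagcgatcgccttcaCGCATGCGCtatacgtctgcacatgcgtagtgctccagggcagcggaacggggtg
Cox6a1: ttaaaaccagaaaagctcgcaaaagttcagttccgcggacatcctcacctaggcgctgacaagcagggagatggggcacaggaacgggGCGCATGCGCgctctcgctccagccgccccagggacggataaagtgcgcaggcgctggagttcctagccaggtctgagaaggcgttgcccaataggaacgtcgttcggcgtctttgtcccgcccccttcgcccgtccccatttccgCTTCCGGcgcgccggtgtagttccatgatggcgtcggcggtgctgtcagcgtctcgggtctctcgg
Cox6b1: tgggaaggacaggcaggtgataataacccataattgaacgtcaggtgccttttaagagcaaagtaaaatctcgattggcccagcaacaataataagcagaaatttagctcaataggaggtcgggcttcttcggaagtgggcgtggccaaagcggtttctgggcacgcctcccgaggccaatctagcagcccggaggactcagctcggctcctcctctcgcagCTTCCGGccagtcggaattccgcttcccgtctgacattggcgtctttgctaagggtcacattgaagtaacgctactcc
Cox7a1: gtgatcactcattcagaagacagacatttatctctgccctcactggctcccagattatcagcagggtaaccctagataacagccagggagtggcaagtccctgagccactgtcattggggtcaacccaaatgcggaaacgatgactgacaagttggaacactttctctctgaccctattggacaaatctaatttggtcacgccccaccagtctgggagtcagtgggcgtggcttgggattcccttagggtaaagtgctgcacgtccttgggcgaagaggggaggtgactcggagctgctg

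Levels between genes were compared as mean CPM per kb of mRNA. The beta and alpha subunits of the ATP synthase, which form its catalytic head, stood at 1692 (Atp5b) and 743 (Atp5a1) CPM per kb. Atp5g3, a gene for the c subunit of the membrane ring, reached 772 CPM per kb, while the other c subunit genes Atp5g2 and Atp5g1 reached 30.5 and 28.6. Before division by length these 2 stood at 17.9 and 76.6 CPM. The mRNA lengths used for them were 586 and 2676 bases, so their order depends on the annotated length. In complex IV, Cox4i1, the ubiquitous form of subunit IV, led with 1222 CPM per kb, followed by Cox8a with 573 and Cox5a with 551. In complex III, Uqcr10 stood at 422 CPM per kb, Uqcrc1, a core protein, at 345 and Uqcrh at 317. In complex I, the accessory subunit gene Ndufa7 led with 379 CPM per kb, ahead of Ndufa4 with 362, whose protein is now placed in complex IV, and Ndufb8 with 301. In complex II, Sdhb, Sdhd and Sdha stood at 134, 121 and 116 CPM per kb, and Sdhc at 42.2. The lowest levels were those of Cox8c (0.376 CPM per kb), Cox6a2 (0.693) and Cox7b2 (0.798), forms known from testis or muscle. Ndufs5 and Ndufb4, accessory complex I genes, were also low, at 2.86 and 7.46 CPM per kb. Many 50-base stretches of some transcripts also occur in other genes. The shares include 84.8% for Atp5l, 38.35% for Atp5g2, 37.0% for Ndufb4, 32.05% for Cox5a, 21.7% for Ndufs5 and 11.1% for Atp5g1. Reads may have been split there, and the levels of these genes are uncertain.

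These genes largely moved together from library to library. The correlation of a gene with the median of the others over the 17 libraries, which share depth and RNA preparation, had a median of 0.897. It was lowest for Ndufs1 (-0.34), Cox7b2 (0.038), Atp5s (0.065) and Sdha (0.26). It was not computed for other sets of genes, so it does not show that moving together is particular to these genes. Their summed level in the mutant was 16080 and 16170 CPM at day 0, 24760, 20490 and 17040 CPM at day 1, 15620 and 21190 CPM at day 2, and 16370 and 18200 CPM at day 7. In WT it was 12000 and 13740 CPM at day 0, 13190 and 20590 CPM at day 1, 13670 and 20200 CPM at day 2, and 15990 and 19800 CPM at day 7. The genotypes did not overlap at day 0, where both mutant libraries were higher, and overlapped at days 1, 2 and 7.

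**Figure D1:**
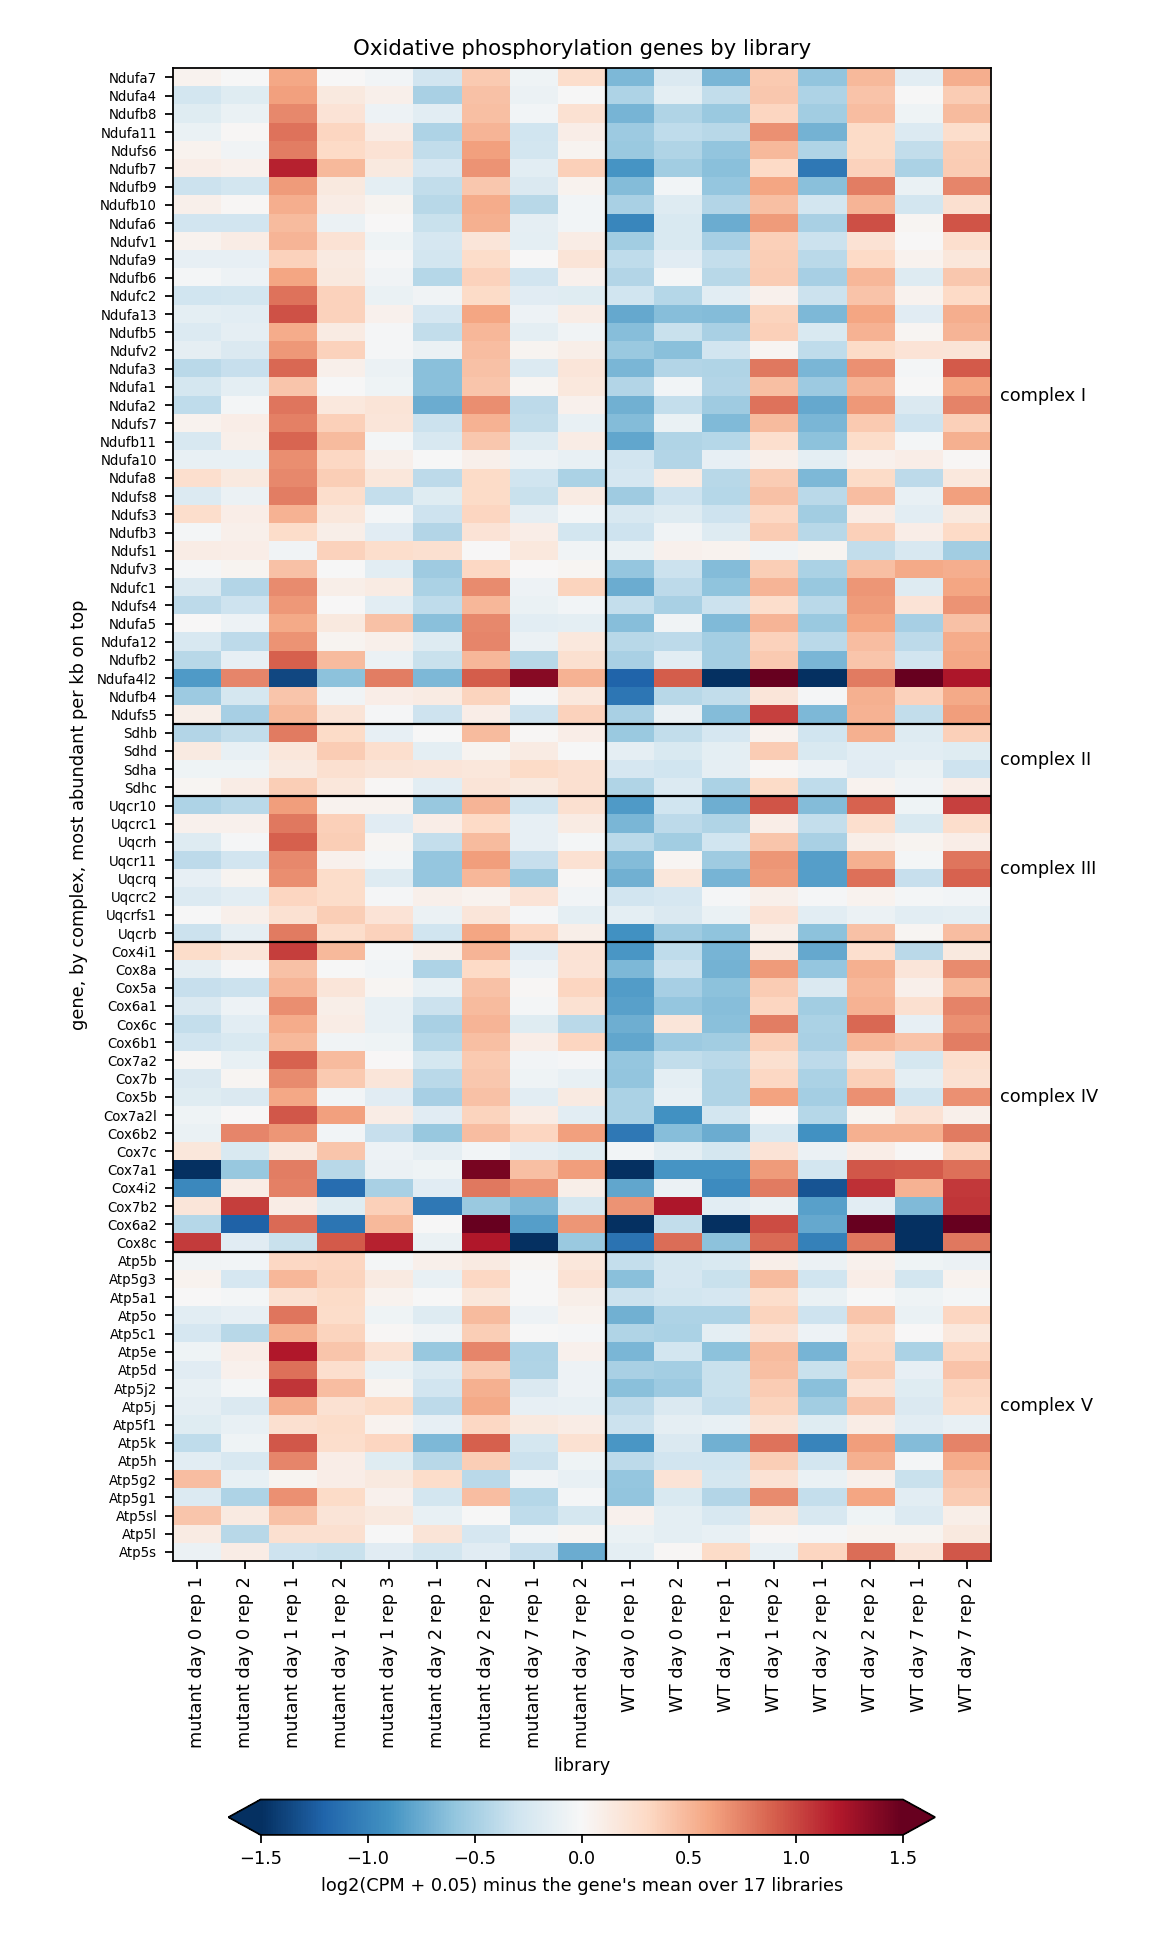
Levels of 82 of the 83 genes (rows, by complex) in the 17 libraries (columns), as log2(CPM + 0.05) minus the mean of each gene over the libraries, red above and blue below that mean. Most rows of a column share a colour, with mutant day 1 replicate 1 high and WT day 0 replicate 1 low.

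Libraries of the same group also differed from each other, least in the mutant at day 0. In the mutant, 50, 11, 78 and 63 of the 83 genes were higher in replicate 2 than in replicate 1 at days 0, 1, 2 and 7, with median log2 differences of 0.04, -0.43, 0.76 and 0.18. In WT, 69, 81, 81 and 72 genes were higher in replicate 2, with medians of 0.29, 0.80, 0.87 and 0.52. The median over all genes stayed between -0.02 and 0.03. These genes are short, with a median mRNA length of 0.782 kb against 2.85 kb over all genes tested, and a median span of 7.28 kb against 24.1 kb. Across these genes, the WT replicate difference ran against log10 span, with r between -0.57 and -0.36. In the mutant this r was 0.06, 0.16, -0.51 and -0.43 at days 0, 1, 2 and 7. On log10 mRNA length, the WT r was between -0.41 and -0.33 for these genes and between -0.35 and -0.11 for all genes. In the mutant the all-gene r on mRNA length was 0.03, 0.23, -0.37 and -0.10. The lowest spread within groups was that of Sdha, with an SD of 0.07 on the log2 scale, against medians of 0.42 for these genes and 0.38 for all genes.

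Mutant and WT cells were compared at each day with edgeR's quasi-likelihood test, and a gene passed at a Benjamini-Hochberg adjusted p under 0.05 over all genes. At day 0, 79 of the 83 genes had a higher estimate in the mutant, with a median log2 fold change of 0.28 for these genes and -0.05 for all genes, but 0 passed, where 0.28% of all genes did. At an unadjusted p under 0.05 there were 3, and DESeq2 called 0. At day 1, 75 were positive, with a median of 0.24 against -0.05 for all genes, and 0 passed, where 0.417% of all genes did (3 at an unadjusted p under 0.05, 0 by DESeq2). At day 2, 56 were positive, with a median of 0.06 against -0.01, and 0 passed, where 0.0716% of all genes did (2 unadjusted, 0 by DESeq2). At day 7 the balance was the other way, with 13 positive and 70 negative and a median of -0.20 against -0.03, and 0 passed, where 0.0976% of all genes did (3 unadjusted, 2 by DESeq2). Of all 15365 genes, 2028, 2216, 928 and 1465 were under 0.05 unadjusted at days 0, 1, 2 and 7. DESeq2 called 285, 266, 59 and 137 of all genes higher in the mutant, and 416, 503, 82 and 179 lower.

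These medians rested on few libraries. Without WT day 1 replicate 1 the day 1 median was -0.07, and without WT day 1 replicate 2 it was 0.80. The day 2 median lay between -0.31 without mutant day 2 replicate 2 and 0.55 without WT day 2 replicate 2, and was -0.28 without WT day 2 replicate 1. The day 7 median was 0.07 without WT day 7 replicate 2 and -0.46 without WT day 7 replicate 1. With each library's trend on mRNA length removed, the day 7 median was 0.07, or -0.09 with length taken over all coding transcripts, so its sign depended on the definition of length. The day 0 median kept its sign in every fit that left out a library, at 0.14 to 0.45, and was 0.14 without WT day 0 replicate 1, also when WT day 1 replicate 1 was left out with it. It was 0.45 without WT day 0 replicate 2, and 0.08 with the trend on mRNA length removed.

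**Figure D2:**
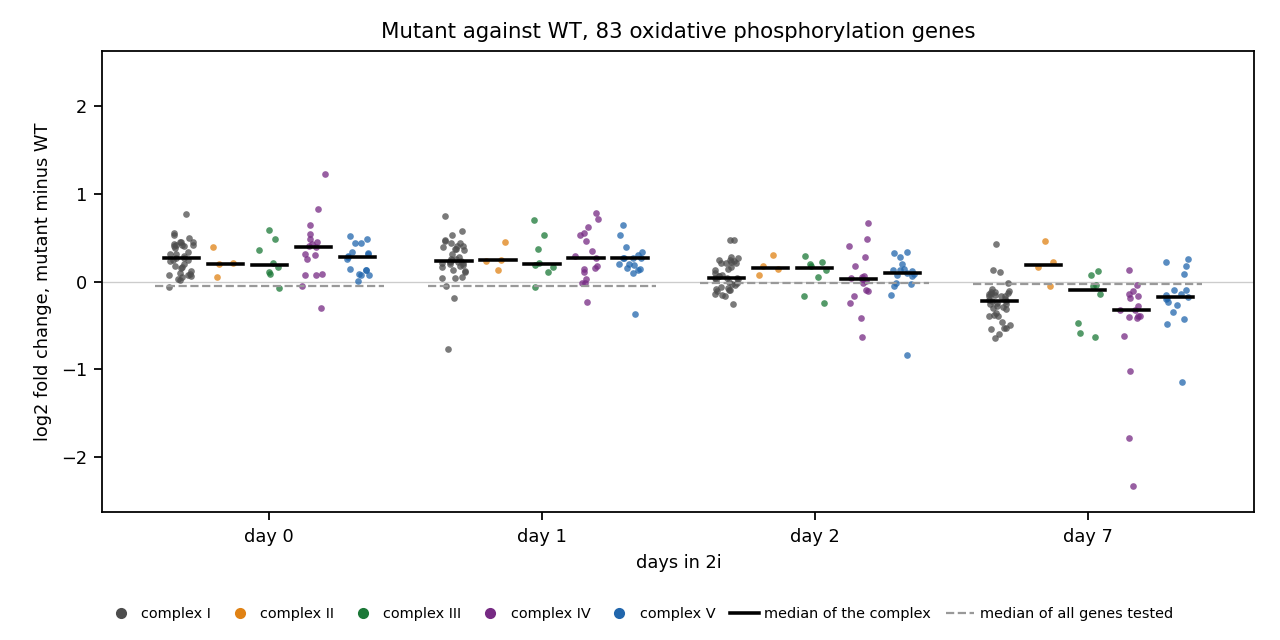
Log2 fold change of each gene, mutant minus WT, by complex and day, from the edgeR fit. Estimates lie mostly above 0 at days 0 and 1 and mostly below 0 at day 7, where the median was -0.20.

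By complex, the day 0 medians were 0.27 for I, 0.20 for II, 0.19 for III, 0.40 for IV and 0.28 for V. At day 7 they were -0.22, 0.19, -0.10, -0.33 and -0.18 in the same order, so that complex II alone had a positive median. At day 7, Sdha had the largest positive estimate among genes of at least 5 CPM, 0.47 (edgeR adjusted p = 0.249, DESeq2 adjusted p = 0.00409), followed by Ndufs1 with 0.43 and Atp5f1 with 0.26. The largest negative estimates were those of Atp5s (-1.15, edgeR adjusted p = 0.234, DESeq2 adjusted p = 0.0133), Ndufa6 (-0.65) and Uqcrq (-0.64). At day 0 the largest were Cox6b2 (1.22), Cox4i1 (0.83) and Ndufb7 (0.77), none of which passed. Cox4i1 stood at 1052 and 988.6 CPM in the mutant at day 0, against 477.5 and 668.5 CPM in WT.

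Averaged over the 4 days, 3 of the 83 genes passed between mutant and WT, where 12.8% of all genes did. Among them, Sdha rose in the mutant and Atp5s fell. The median of the 83 genes was 0.12, 0.003 without the WT pair with stromal markers, and between 0.02 and 0.21 over the fits that left out a library, the lowest without mutant day 2 replicate 2 and the highest without WT day 2 replicate 2. DESeq2 called 4 higher and 1 lower, against 1234 and 1791 of all genes. Sdha (chr13:74322254-74350280, minus strand, mm10) encodes the flavoprotein subunit of complex II that oxidises succinate. It stood at 319 and 319 CPM in the mutant at day 0, 369, 396 and 384 CPM at day 1, 381 and 377 CPM at day 2, and 409.7 and 396 CPM at day 7. In WT it stood at 280.4 and 272 CPM at day 0, 304 and 339 CPM at day 1, 316.5 and 297 CPM at day 2, and 313 and 269.7 CPM at day 7. Each mutant library was above both WT libraries of its day. The log2 fold change was 0.31 (SE 0.06, edgeR adjusted p = 0.00935), and it passed in all 12 alternatives and all 17 fits that left out a library, with adjusted p between 1.53e-06 and 0.0311.

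Atp5s (chr12:69724950-69744660, plus strand) stood at 4.40 and 3.34 CPM in the mutant at day 7, against 6.38 and 10.8 CPM in WT, and at 5.30 and 6.09 CPM in the mutant at day 0, against 5.08 and 5.70 CPM in WT. The groups overlapped at day 0 and not at day 7. The average log2 fold change was -0.57 (SE 0.15, edgeR adjusted p = 0.0291). It did not pass without the WT pair with stromal markers. The call was lost in 9 of the 17 fits, without WT day 1 replicate 1, WT day 2 replicate 2, WT day 7 replicate 2, either mutant day 0 library, mutant day 1 replicate 2, either mutant day 2 library or mutant day 7 replicate 2, with adjusted p up to 0.079.

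**Figure D3:**
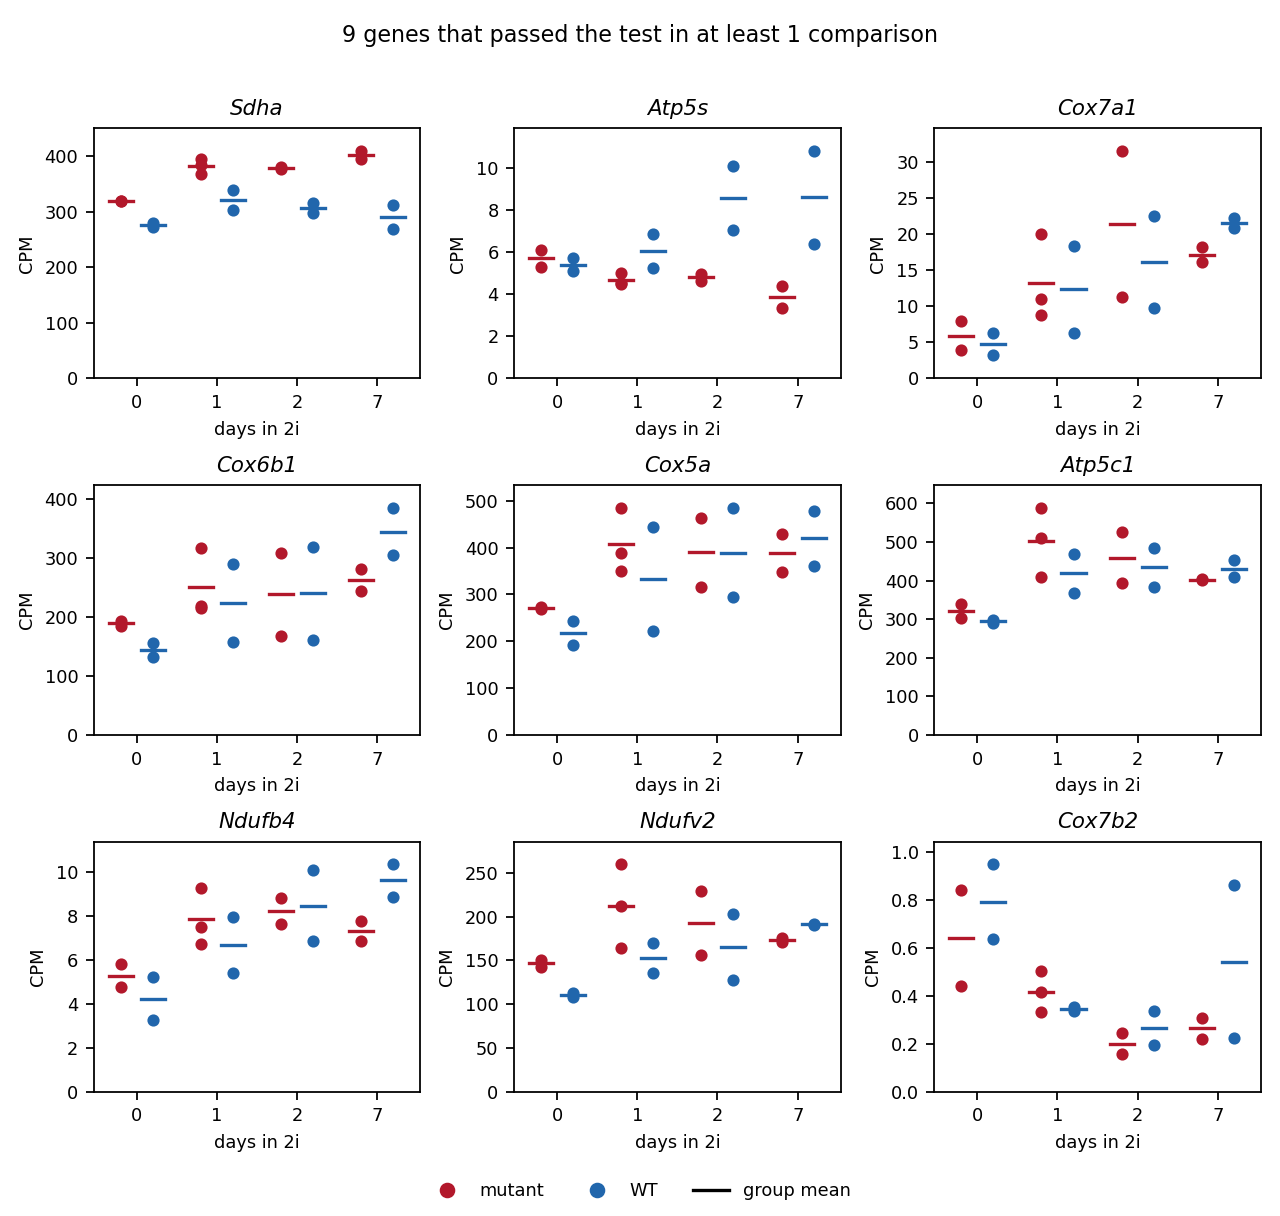
CPM of 9 genes that passed the test in at least 1 comparison, by days in 2i, with a point per library (mutant red, left; WT blue, right) and a bar for the group mean. Sdha shows mutant libraries above WT at every day, and Cox7a1 shows both genotypes higher at day 7 than at day 0.

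Genotype differences also followed the chromosome. Other genes of at least 5 CPM had a median average log2 fold change of 0.40 on chromosome 8 (580 genes) and -0.20 on chromosome 15 (424 genes), and between -0.06 and 0.06 on every other chromosome. The members on chromosome 8 were Cox4i1 (0.56), Ndufb7 (0.52) and Ndufa13 (0.27). Those on chromosome 15 were Cox6c (-0.24), Ndufa6 (-0.15), Ndufb9 (-0.12) and Atp5g2 (0.06). Without these 7 genes the medians were 0.27, 0.24, 0.07 and -0.20 at days 0, 1, 2 and 7. The part of the chromosomes in the values of these genes was not tested.

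**Figure D4:**
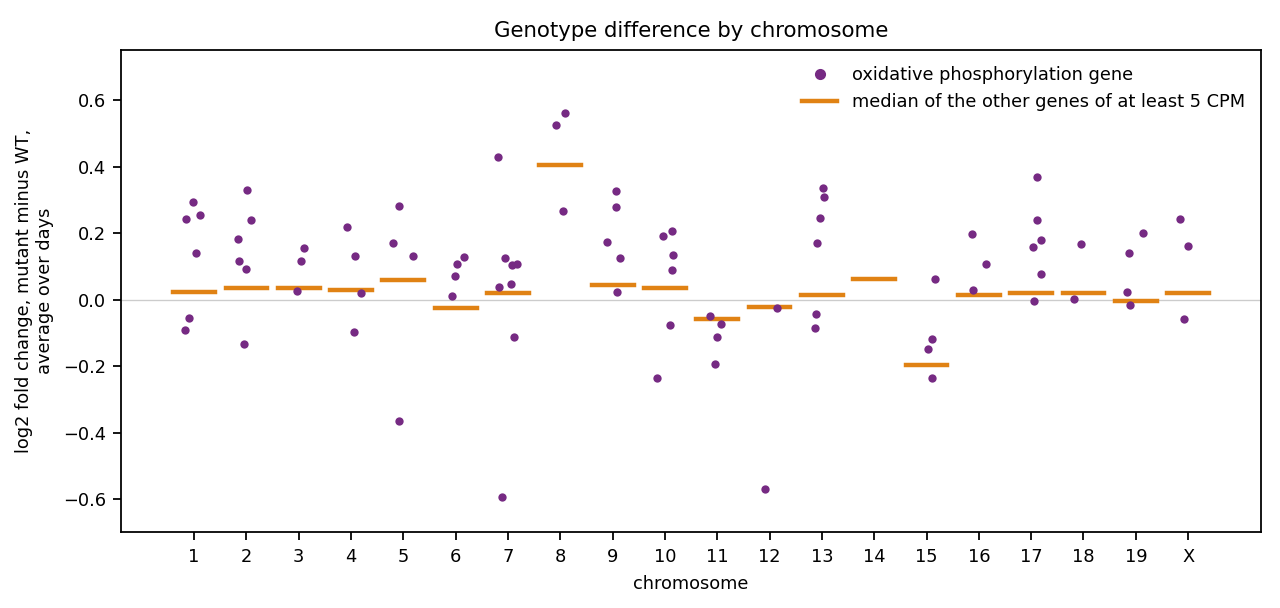
Log2 fold change, mutant minus WT, averaged over days, for each of the 83 genes (points) by chromosome, with the median of the other genes of at least 5 CPM (bars). The bars stand at 0.40 on chromosome 8 and -0.20 on chromosome 15.

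The response to 2i was measured as each later day minus day 0, and the 3 contrasts of a genotype share its day 0 libraries. In the mutant, 77, 70 and 57 of the 83 genes had a higher estimate at days 1, 2 and 7, with medians of 0.43, 0.21 and 0.10. None passed at days 1, 2 or 7 with edgeR, where 1.41%, 2.92% and 14.2% of all genes did. At an unadjusted p under 0.05 there were 8, 3 and 3, against 2030, 2302 and 4385 of all genes. DESeq2 called 1, 1 and 2, where of all genes it called 402, 637 and 1618 higher and 402, 589 and 1696 lower. In WT, 82, 76 and 78 genes had a higher estimate, with medians of 0.42, 0.46 and 0.55. There, 0, 0 and 3 passed, where 0.202%, 2.16% and 12.7% of all genes did. At an unadjusted p under 0.05 there were 1, 6 and 17, against 1293, 2622 and 4520 of all genes. DESeq2 called 0, 1 and 8, where of all genes it called 166, 640 and 1570 higher and 162, 589 and 1666 lower. These tests had no replicate term, although replicate numbers paired the WT libraries. With a term that separates WT replicates 1 and 2, 2 genes were called at day 2 and 19 at day 7, and a replicate block called 9 at day 7. The share of all genes called in these fits is not given here, so these counts cannot be set against 2.16% and 12.7%. All-gene medians of these contrasts lay between -0.01 and 0.02. Without WT day 1 replicate 2 the WT day 1 median was -0.01, without WT day 2 replicate 2 the WT day 2 median was -0.0006, and the mutant day 2 median was as low as -0.16 in the fits that left out a library.

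Averaged over both genotypes, 81, 75 and 75 genes had a higher estimate at days 1, 2 and 7, with medians of 0.44, 0.31 and 0.32. These medians were lower with each library's trend on mRNA length removed, at 0.16, 0.15 and 0.20. The day 1 median was 0.20 without WT day 1 replicate 2, and the day 2 median 0.11 when mutant day 2 replicate 2 was left out and 0.08 when WT day 2 replicate 2 was. The day 7 median was 0.18 without WT day 7 replicate 2. Leaving out replicate 1 of day 2 gave a median of 0.48 for the mutant library and 0.50 for the WT library. The highest medians of days 1 and 7 were 0.62 without WT day 1 replicate 1 and 0.43 without WT day 7 replicate 1. At day 1, 1 gene rose, where 4.86% of all genes passed. At day 2, 3 rose and 1 fell, where 10.7% of all genes passed. At day 7, 6 rose, where 27.3% of all genes passed. At an unadjusted p under 0.05 there were 27, 12 and 16 of these genes, against 3022, 3939 and 5965 of all genes. DESeq2 called 8 of these genes at day 1, where it called 828 of all genes higher and 813 lower. The fit with a term that separates WT replicates 1 and 2 called 10 of these genes at day 1. The share of all genes called in that fit is not given here.

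**Figure D5:**
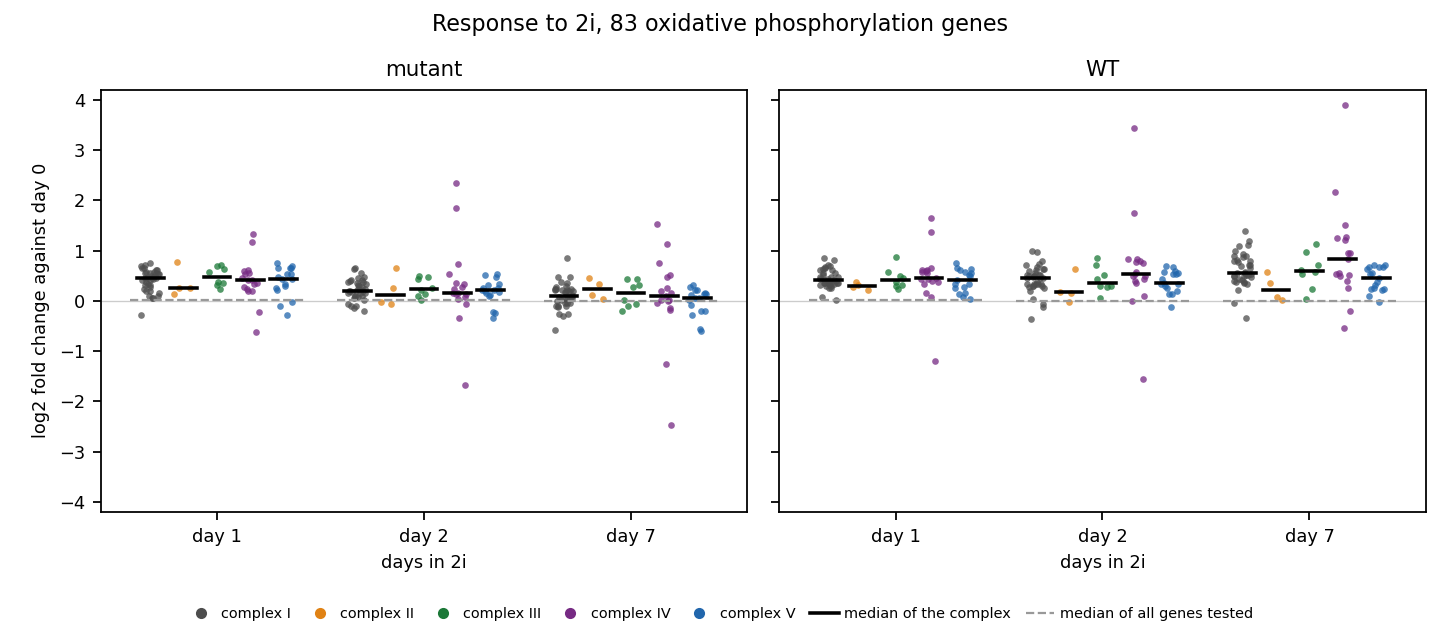
Log2 fold change of each gene against day 0 by complex, for the mutant and for WT at days 1, 2 and 7, from the edgeR fit. Most estimates lie above 0, with medians at day 7 of 0.10 in the mutant and 0.55 in WT.

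Cox7a1 (chr7:30184144-30186078, plus strand), the heart and skeletal muscle form of subunit VIIa, rose most among the genes that passed. It stood at 16.1 and 18.3 CPM in the mutant at day 7, against 3.93 and 7.92 CPM at day 0. In WT it stood at 22.3 and 20.9 CPM at day 7, against 3.23 and 6.36 CPM at day 0. Day 7 and day 0 libraries did not overlap in either genotype. Averaged over genotypes its log2 fold change at day 7 was 1.85 (SE 0.46, edgeR adjusted p = 0.00921), and it passed in all alternatives and all fits that left out a library, with adjusted p between 0.000219 and 0.0452. It rose at day 2 as well (1.80, SE 0.45, adjusted p = 0.0231 by edgeR), a call lost without WT day 0 replicate 1, WT day 2 replicate 2, mutant day 0 replicate 1 or mutant day 2 replicate 2. Fitting only the compared groups also ended the day 2 call. In WT alone the day 7 change was 2.17 (SE 0.65, edgeR adjusted p = 0.0451), lost in 10 of the 17 fits, those without any 1 of the day 0 and day 7 libraries of either genotype or mutant day 1 replicate 2 or 3. Upper quartile scaling, fitting only the compared groups and leaving out the WT pair with stromal markers also ended the WT call.

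Cox6b1 (chr7:30616861-30626151, minus strand), the ubiquitous form of a subunit that joins the complex IV dimer, whose window is shown above, stood at 243 and 282 CPM in the mutant at day 7, against 185 and 193 CPM at day 0. In WT it stood at 304 and 385 CPM at day 7, against 132 and 155 CPM at day 0. The days did not overlap in either genotype. Its average change at day 7 was 0.87 (SE 0.26, edgeR adjusted p = 0.0247), and 0.78 to 0.95 over the fits that left out a library. The call was lost without WT day 0 replicate 1, WT day 7 replicate 2, either mutant day 0 library or mutant day 7 replicate 2. It was also lost without the WT pair with stromal markers. In WT alone the change was 1.27 (SE 0.37, edgeR adjusted p = 0.0414), lost in the same 10 fits as Cox7a1. Upper quartile scaling, fitting only the compared groups and leaving out the WT pair also ended this WT call. Cox5a, an accessory subunit on the matrix side, stood at 347 and 429 CPM in the mutant at day 7, against 268.5 and 273 CPM at day 0. In WT it stood at 361 and 478 CPM at day 7, against 191.5 and 243 CPM at day 0. All day 7 libraries were above those of day 0, with an average change of 0.73 (SE 0.23, edgeR adjusted p = 0.0321), lost without WT day 0 replicate 1, WT day 7 replicate 2, or any 1 of the mutant day 0 and day 7 libraries. Upper quartile scaling also ended this call.

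In complex I, Ndufb4, an accessory subunit gene with shared sequence, rose at days 2 and 7 on average (0.82 and 0.83, SE 0.23 each, edgeR adjusted p = 0.0353 and 0.0162). In WT it stood at 8.88 and 10.3 CPM at day 7, against 3.25 and 5.23 CPM at day 0, a change of 1.18 (SE 0.32, edgeR adjusted p = 0.0315). The WT call was lost without WT day 0 replicate 1 or either WT day 7 library, and the average day 7 call without WT day 0 replicate 1, mutant day 0 replicate 1 or mutant day 7 replicate 2. The average day 2 call was lost in 9 of 17 fits, without WT day 0 replicate 1, WT day 2 replicate 2, mutant day 1 replicate 3, or any 1 of the mutant day 0, day 2 and day 7 libraries. Leaving out the WT pair with stromal markers or fitting only the compared groups also ended the average day 2 call and the WT call. Ndufv2, a core iron-sulfur subunit gene at the NADH end, rose at day 7 on average (0.52, SE 0.18, edgeR adjusted p = 0.0473), lost in 9 of 17 fits, without mutant day 1 replicate 2 or any 1 of the day 0 and day 7 libraries of either genotype. RLE or upper quartile scaling, no filter or the stricter one, gene span offsets and leaving out the WT pair with stromal markers also ended this call. It stood at 171 and 176 CPM in the mutant at day 7, against 151 and 142 CPM at day 0, and at 192 and 190.3 CPM in WT, against 112 and 108 CPM at day 0.

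In complex V, Atp5c1, the gamma subunit gene of the rotating shaft, rose on average at days 1, 2 and 7. The changes were 0.58, 0.54 and 0.44 (SE 0.14, 0.15 and 0.15), with edgeR adjusted p of 0.0328, 0.0318 and 0.0407. It stood at 403.6 and 401 CPM in the mutant at day 7, against 339 and 303.5 CPM at day 0, and at 408 and 453 CPM in WT, against 297 and 291 CPM at day 0. All day 7 libraries were above those of day 0, but the calls were lost in 9, 6 and 9 of the 17 fits. The day 1 call was lost without WT day 1 replicate 2, mutant day 1 replicates 1 or 2, or any 1 of the day 0 libraries and mutant day 7 libraries. The day 2 call was lost without any day 0 library, WT day 2 replicate 2 or mutant day 2 replicate 2, and the day 7 call without the same 9 libraries as Ndufv2. Upper quartile scaling, the stricter filter, gene span offsets and leaving out the WT pair also ended the day 7 call, fitting only the compared groups ended those of days 1 and 2, and the day 2 call was also lost without the WT pair. Cox7b2, a testis form of complex IV, fell at day 2 on average (-1.62, SE 0.48, edgeR adjusted p = 0.0487). It stood at 0.156 and 0.243 CPM in the mutant at day 2, against 0.442 and 0.839 CPM at day 0, and at 0.196 and 0.336 CPM in WT, against 0.637 and 0.947 CPM at day 0. This rests on 395 counts in all, and of the 17 fits that left out a library, only those without a WT day 7 library kept the call. It was kept in 6 of 11 other settings.

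The fit without the pair of WT libraries with stromal markers kept 1 library each of WT days 0 and 1. The share of all genes called in it is not given here, so its counts of genes that passed cannot be set against the shares above.

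Whether the genotypes responded differently was tested as the difference of the responses. At days 1, 2 and 7, 0 of these genes passed with edgeR, and 0% of all genes passed at day 1, 0% at day 2 and 0% at day 7. At an unadjusted p under 0.05 there were 0, 0 and 1, against 118, 366 and 1178 of all genes. DESeq2 called 0 of these genes at each day, and at day 7 it called 40 of all genes higher and 33 lower. The medians were -0.01, -0.20 and -0.54, against -0.01, 0.02 and 0.03 for all genes, and 78 of the 83 day 7 estimates were negative. Over the fits that left out a library, the day 1 median lay between -0.39 without WT day 1 replicate 1 and 0.45 without WT day 1 replicate 2. The day 2 median lay between -0.64 without mutant day 2 replicate 2 and 0.24 without WT day 2 replicate 2, and leaving out replicate 1 of day 2 gave 0.08 for the mutant library and -0.60 for the WT library. The day 7 median lay between -0.76 without WT day 7 replicate 1 and -0.21 without WT day 7 replicate 2, and was -0.03 with the trend on mRNA length removed. Atp5s was the gene under 0.05 unadjusted (-1.23, SE 0.44, edgeR adjusted p = 0.605), and Cox6b2 had the largest negative estimate among genes of at least 5 CPM (-1.40, SE 0.68, edgeR adjusted p = 0.647).

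The tissue forms stayed minor beside their ubiquitous partners, compared per kb of mRNA. Cox7a1 held 3.90 and 8.19% of the sum of Cox7a1 and Cox7a2 in the mutant at day 0, 10.2, 6.22 and 10.3% at day 1, 12.4 and 20.1% at day 2, and 14.7 and 16.2% at day 7. In WT it held 4.80 and 7.94% at day 0, 8.10 and 13.97% at day 1, 11.8 and 17.2% at day 2, and 21.9 and 15.5% at day 7. The day 7 shares lay above the day 0 shares in both genotypes. Cox6b2, known from testis, held 14.5 to 33.2% of the sum with Cox6b1 over the 17 libraries. Cox4i2, Cox6a2, Cox7b2 and Cox8c each held under 1% of their pair in every library. Ndufa4l2, known as a gene induced in low oxygen, ranged from 0.743 to 34.8 CPM, both in WT, and held 0.311 to 9.66% of the sum with Ndufa4.

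Other genes of the pathway were counted over lists of assembly factors (47 tested), other nuclear respiratory genes (22), regulators of mitochondrial transcription and biogenesis (17) and the TCA cycle (18). On average over days, the mutant had 2 assembly factors higher and 1 lower, 3 and 2 of the other respiratory genes, 0 and 1 regulators, and 1 and 1 TCA cycle genes, where 12.8% of all genes passed in both directions together. Surf1, needed to assemble complex IV, rose by 0.62 on the log2 scale (edgeR adjusted p = 0.00905), and Lyrm7, which serves the Rieske protein of complex III, changed by -1.31 (edgeR adjusted p = 0.0208). Lyrm7 was low, with group means of 0.55 to 0.72 CPM in the mutant and 1.43 to 1.69 CPM in WT. Of genes of ubiquinone synthesis, Coq9, Coq2 and Coq5 changed by 0.53, 0.38 and 0.33, and Pdss2 by -0.43 (edgeR adjusted p = 0.0269). Etfdh, which passes electrons to ubiquinone, changed by -0.41 (edgeR adjusted p = 0.0144). Tfb1m, a methyltransferase for mitochondrial ribosomal RNA, changed by -0.93 (edgeR adjusted p = 0.000279). The median log2 fold changes of the 4 lists were 0.07, 0.07, 0.02 and 0.07, against 0.12 for the 83 genes and -0.03 for all genes.

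At day 7 against day 0 in the mutant, 4 of 47 assembly factors fell and 0 rose, where 14.2% of all genes passed in both directions together. Among the 4 were Tmem126b (-1.11) and Ecsit (-0.96), which serve complex I. In WT, where 12.7% of all genes passed, 1 assembly factor rose, Cox18 (0.58), and so did Idh2, a mitochondrial isocitrate dehydrogenase (1.66, edgeR adjusted p = 0.00368). Averaged over genotypes at day 7, 2 assembly factors rose and 4 fell, where 27.3% of all genes passed, and Idh2 rose by 1.26 on the log2 scale (edgeR adjusted p = 0.000533).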

How the data were processed

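Total RNA from 17 libraries was analysed. The deposited values are raw counts per gene in a single table, and the submitters' processing notes name STAR and deepTools, and mm10 as the build. Tool versions, how reads were counted, by which annotation, with which strand setting and with what rule for multi-mapping reads are not given in the sources used here. Genes that overlap or share sequence may therefore exchange reads. Groups came from the sample titles.

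Counts were fitted with edgeR 4.0.16 in R 4.3.3: TMM scaling, filterByExpr on the 8 groups, a quasi-likelihood fit over all 17 libraries and 17 contrasts, two-sided, with Benjamini-Hochberg adjustment over the 15365 genes tested. The fit had 9 residual degrees of freedom and a biological coefficient of variation of 0.333. CPM use TMM-scaled library sizes. The procedure was tested on simulated data. It recovered 18 of 100 simulated 2-fold changes between mutant and WT at day 0, and 79 of 100 on average over days. For day 7 against day 0 it recovered 14 of 100 in WT and 57 of 100 on average over genotypes. For the difference in response at day 7 it recovered 4 of 100. A count of 0 passing therefore does not show that no gene changed.

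Alternatives were DESeq2 1.42.0, RLE and upper quartile scaling, no filter, a filter of 1 CPM in 4 libraries, only the compared groups, a replicate block, a term that separates WT replicates 1 and 2, leaving out the WT pair with stromal markers or each library, and offsets on gene span. Offsets on mRNA length, and medians without chromosomes 8 and 15, were chosen after seeing the data. Positions and lengths came from GENCODE M21. Length was first the median over all coding transcripts and was changed, after values were seen, to the APPRIS principal transcripts, since some models were partial. Both are reported. The values of 1 gene that passed are not reported here.

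The genes and lists were chosen with earlier results of these data known. Genes were named if they passed (up to 12 per contrast), had the 3 largest changes in either direction at 5 CPM or more, belonged to a set list of subunits and tissue forms, were the 3 most or least abundant of a complex per kb, or were up to 4 called genes of a pathway list. Replicate numbers pair samples only where every pair's deviations correlate above 0.1: WT pairs did (6 of 6), mutant pairs (1 of 6) and pairs between genotypes (10 of 16) did not.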

Additional observations from a re-analysis of the deposited data

How the results depend on the processing

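Counts of these genes that passed are given as totals of both directions. Counts over all genes are given above for DESeq2 only, so the other counts cannot be set against a share of all genes. With DESeq2 they were 2 for the mutant against WT at day 7, 5 for the average over days, 1, 1 and 2 for the mutant at days 1, 2 and 7, 1 and 8 for WT at days 2 and 7, and 8 for the average response at day 1. With upper quartile scaling they were 1 for the mutant at day 7, 1 for WT at day 7 and 3 for the average response at day 7. When other groups were left out of the fit they were 1 and 8 for the mutant at days 2 and 7, 0 for WT at day 7, and 0, 0 and 20 for the average response at days 1, 2 and 7. With a replicate block they were 8 for the average genotype difference, 9 for WT at day 7, and 5 and 11 for the average response at days 1 and 7, and the replicate numbers did not pair the samples across genotypes. With a term that separates WT replicates 1 and 2 they were 7 for the average genotype difference, 1, 1 and 2 for the mutant at days 1, 2 and 7, 2 and 19 for WT at days 2 and 7, and 10, 8 and 16 for the average response at days 1, 2 and 7. Without the WT pair with stromal markers they were 1 for the average genotype difference, 1 for the mutant and 0 for WT at day 7, and 1 and 3 for the average response at days 2 and 7. With offsets on gene span they were 2 for the mutant and 5 for WT at day 7. With offsets on mRNA length they were 7 for the average genotype difference, 2 and 7 for the mutant at days 2 and 7, 1 and 8 for WT at days 2 and 7, and 9 and 21 for the average response at days 2 and 7. With length over all coding transcripts they were 1 for the mutant and 7 for WT at day 7, and 10 for the average response at day 7. Leaving out each library gave 1 to 7 for the average genotype difference, 0 to 1 for the mutant at day 7, 0 to 6 for WT at day 7, and 0 to 5, 0 to 6 and 1 to 8 for the average response at days 1, 2 and 7. A group left with 1 library was given the spread of the rest. The causes were not tested. No called gene changed sign under any alternative.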
